A study of Xenopus laevis with 8 samples.

Results

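The pyruvate dehydrogenase kinases and phosphatases of Xenopus laevis were taken as every probe set whose platform gene symbol, without the homeolog mark, is pdk1, pdk2, pdk3, pdk4, pdp1 or pdp2. This gave 11 probe sets of 32539, for 6 genes of 11303 named genes. pdk4.L had 1 probe set, pdk4.S had 2, pdk1.L and pdk1.S had 1 each, pdp1.L had 4 and pdp2.S had 2. No probe set with a single symbol named pdk2 or pdk3, which were not analysed here. The marks .L and .S denote homeologs, the copies of a gene on the 2 subgenomes of this tetraploid frog.

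The RNA came from anterior endoderm of embryos that all carried Ngn3-GR mRNA, injected at the 8-cell stage into the dorsal vegetal side (2 blastomeres). Ngn3 is a proneural transcription factor, and its fusion to a glucocorticoid receptor domain is switched on by dexamethasone. The DEX group (4 arrays) was treated with 10 µM dexamethasone from stage 12 for 4 hours, the no_DEX group (4 arrays) was left without it, and both were dissected at stage 15 of Nieuwkoop and Faber (NF). Each group holds biological replicates numbered 1 to 4 in the labels, which do not say whether a number marks a clutch or a day. Unpaired p-values measure the spread between these samples, and p-values paired by number measure the spread of the differences within numbers. Part of either spread may be technical. No group with dexamethasone and without Ngn3-GR was analysed here, so effects of the drug itself and of the switched-on fusion cannot be told apart. The level of the injected Ngn3-GR was not analysed here, because no named probe set carries the gene.

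The pyruvate dehydrogenase complex of mitochondria turns pyruvate, the end product of glycolysis, into acetyl-CoA for the tricarboxylic acid (TCA) cycle. Pyruvate dehydrogenase kinases phosphorylate its E1 alpha subunit and switch the complex off, and pyruvate dehydrogenase phosphatases remove the phosphate and switch it on again. In mammals, PDK4 is the family member best known for its induction by fasting and by glucocorticoids, and it spares glucose when fatty acids are burned.

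Values are log2 expression from RMA, 1 per array, and a change is the DEX mean minus the no_DEX mean on that scale. The probes of different sets differ in sequence, so levels are compared between arrays and not between genes. Of 22 groups of 4 member values, none held an array far from the other 3. Changes were tested with limma over all probe sets, without and with the replicate number as a block, and a probe set was called at an adjusted p under 0.05. Without the block, 2 probe sets of 32539 were called higher (0.00615%) and 0 lower (0.0%), and 1379 had an unadjusted p under 0.05. With the replicate block, 107 were called higher (0.329%) and 73 lower (0.224%). Array background was taken from 17 control probe sets, whose values ran from 2.38 to 4.40. A probe set with a mean at or under 4.40 is called within the background range, and 8 of the 11 member probe sets lay above it.

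With dexamethasone, both homeologs of pdk4 stood more than 1 log2 unit higher, while the changes of the other kinase and phosphatase probe sets ran from -0.17 to 0.15. All 3 pdk4 probe sets were called with the replicate block and none was called without it. The 8 other member probe sets were called in neither fit. The 11 members thus gave 3 calls with the block, all of pdk4 and 2 of them of pdk4.S, against 180 of all 32539 probe sets. The median change was 0.10 over the 11 members, 1.11 over the pdk4 probe sets and 0.06 over the others. Over all probe sets it was 0.00.

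The pdk4.L probe set (Xl2.1717.1.S1_at) read 9.35, 9.66, 8.73 and 8.81 on DEX arrays 1 to 4. On no_DEX arrays 1 to 4 it read 7.54, 8.14, 7.78 and 7.98. The lowest DEX array lay 0.58 above the highest no_DEX array, so the groups did not overlap. The means were 9.14 ± 0.45 with dexamethasone and 7.86 ± 0.26 without it (SD, n = 4), a change of log2 1.28, or 2.42-fold. The 95% interval ran from 0.77 to 1.78 without the block and from 0.91 to 1.64 with it. The adjusted p from limma was 0.272 without the block and 0.0244 with it. The change was the 19th largest rise among all probe sets.

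The brighter pdk4.S probe set (Xl2.34749.1.S1_at) read 10.02, 10.39, 9.84 and 10.24 on DEX arrays 1 to 4. Its no_DEX values were 8.37, 9.13, 9.10 and 9.65. These groups did not overlap either, with a gap of 0.19 between the lowest DEX and the highest no_DEX array. The change was log2 1.06, or 2.09-fold (10.12 ± 0.24 against 9.06 ± 0.52, SD, n = 4), with a 95% interval of 0.50 to 1.62 without the block and 0.68 to 1.44 with it. The adjusted p from limma was 0.608 without the block and 0.0424 with it.

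The dimmer pdk4.S probe set (Xl2.47951.1.A1_s_at), whose suffix marks probes shared between transcripts, read 7.40, 7.79, 7.17 and 7.55 with dexamethasone. Without it the values were 5.64, 6.58, 6.33 and 6.90. The order of the arrays within each group was that of the brighter probe set, and no_DEX array 1 was the lowest of all 8 on both. The change was log2 1.11 (7.48 ± 0.26 against 6.37 ± 0.54, SD, n = 4), with an adjusted p from limma of 0.586 without the block and 0.0396 with it. The changes of the pair of pdk4.S probe sets differed by 0.05, with an exact two-sided permutation p of 0.371 over the 8 arrays.

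**Figure D1:**
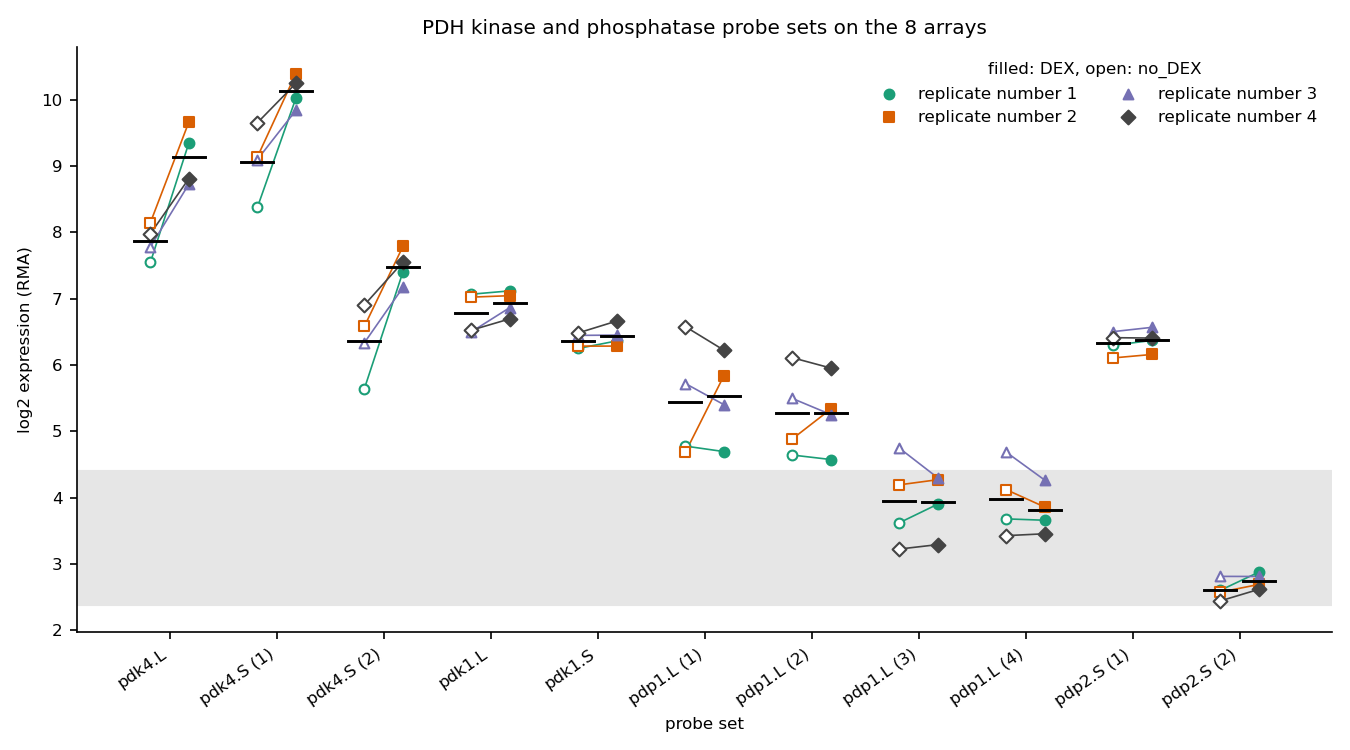
Log2 expression of the 11 member probe sets on each array, open symbols without and filled symbols with dexamethasone, lines joining arrays with the same replicate number, bars at group means and grey marking the background range of 2.38 to 4.40. For the 3 pdk4 probe sets every filled symbol lies above every open one, while the groups of the other 8 overlap.

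Non-overlapping groups with the DEX arrays on top were found for 515 probe sets of the whole array (1.58%), and with either group on top for 898 (2.76%). Among the members they were found for the 3 pdk4 probe sets, 27.3% of 11. These 3 probe sets stand for 2 genes, and the members were chosen with earlier results of these data known. The 27.3% is therefore a description and not a test. A change of at least 1 log2 unit upwards was seen for 45 probe sets (0.138%). Higher values in all 4 pairs of arrays with the same replicate number were more common, at 3536 probe sets (10.9%).

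The size of the pdk4 change differed between pairs. In pairs 1, 2, 3 and 4, pdk4.L stood higher by log2 1.80, 1.52, 0.95 and 0.83. The brighter pdk4.S probe set stood higher by 1.65, 1.26, 0.74 and 0.59. Both homeologs therefore had their largest change in pair 1, the next in pair 2 and the smallest in pair 4. For pdk4.S the pairs differed mostly through the untreated arrays, which had an SD of 0.52 against 0.24 with dexamethasone. For pdk4.L the spread was wider with dexamethasone (SD 0.45) than without it (0.26).

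The calls depended on the pairs, for pdk4 as over the whole array. Over all probe sets, 107 were called higher with the block, and 22, 4, 17 and 47 without pair 1, 2, 3 or 4. Those called lower went from 73 to 12, 0, 9 and 73. Without pair 1, 2, 3 or 4, the adjusted p of pdk4.L with the replicate block was 0.0622, 0.130, 0.0731 and 0.0333, for changes of 1.10, 1.19, 1.38 and 1.42. For the brighter pdk4.S probe set it was 0.0922, 0.214, 0.109 and 0.0495, for changes of 0.86, 0.99, 1.17 and 1.22. With 3 pairs, both homeologs passed only when pair 4 was the one left out. Leaving out probe sets within the background range moved the adjusted p of the brighter pdk4.S probe set with the block to 0.0522, which ends its call. The dimmer pdk4.S probe set, at 0.0480, and pdk4.L, at 0.0324, stayed called under that setting.

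**Figure D2:**
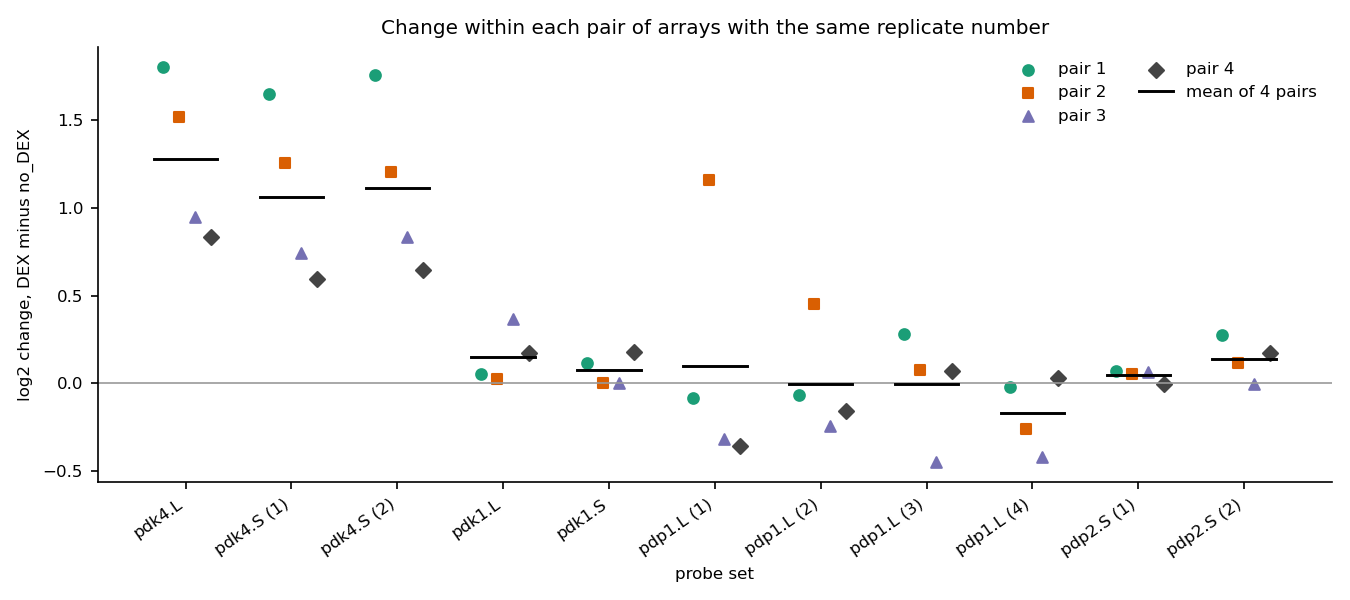
Log2 change (DEX minus no_DEX) of each member probe set within the 4 pairs of arrays with the same replicate number, with a bar at the mean. The pdk4 changes run from 0.59 to 1.80 and fall in the same pair order for both homeologs, and of the other members pdp1.L (1) alone exceeds 0.5 in any pair, in pair 2.

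The homeologs were compared directly. The pdk4.L change exceeded that of the brighter pdk4.S probe set by 0.16, 0.26, 0.21 and 0.24 in pairs 1 to 4, a mean of 0.22 with an SD of 0.05 over pairs. The direction was the same in 4 of 4 pairs. An exact two-sided permutation test over the 8 arrays gave p = 0.457, and exact sign flips within the 4 pairs gave p = 0.125, the smallest value 4 pairs allow. Against the dimmer pdk4.S probe set the mean difference was 0.17 (exact p = 0.514 over the arrays), with pairs between 0.05 and 0.31. The tests used did not show an unequal change of the homeologs. Neither decides the question, since the test over the arrays leaves out the pairing and the sign flips could not pass with 4 pairs.

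Over the 8 arrays, pdk4.L and pdk4.S correlated at a Pearson r of 0.883, a description of arrays that share the 2 treatment groups. The homeologs differed in which arrays were high within a group. DEX array 4 was second highest of the DEX arrays for pdk4.S and second lowest for pdk4.L. Among the untreated arrays, number 4 was the highest for pdk4.S and number 2 for pdk4.L.

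Of the other kinases, pdk1 encodes an isoform known in mammals as a target of hypoxia signalling. The pdk1.L probe set (Xl2.23190.1.S1_at) read 7.12, 7.04, 6.86 and 6.69 with dexamethasone and 7.07, 7.02, 6.50 and 6.52 without it. The groups overlapped, and arrays 1 and 2 of both groups lay above arrays 3 and 4. The change was 0.15, with a 95% interval of -0.22 to 0.53 without the block and -0.05 to 0.35 with it, and an adjusted p from limma of 0.540 with the block. It was positive in 4 of 4 pairs, from 0.02 to 0.37.

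The pdk1.S probe set (Xl2.49813.1.S1_at) read 6.36, 6.28, 6.45 and 6.66 with dexamethasone and 6.25, 6.28, 6.45 and 6.48 without it. The arrays of numbers 2 and 3 were equal to 0.01 between groups. The change was 0.07, with a 95% interval of -0.17 to 0.32 without the block and an adjusted p from limma of 0.768 with it. These intervals end below the point estimates of the pdk4 changes. Without the block, that of pdk1.L (up to 0.53) overlaps that of the brighter pdk4.S probe set (from 0.50).

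pdp1 encodes the catalytic subunit of a pyruvate dehydrogenase phosphatase, which removes the phosphate that the kinases add. The brightest pdp1.L probe set (Xl2.43194.1.S1_x_at) read 4.69, 5.84, 5.40 and 6.22 with dexamethasone and 4.78, 4.68, 5.72 and 6.58 without it. It stood higher with dexamethasone in pair 2, by 1.16, and lower in the other 3 pairs. The mean change was 0.10, with a 95% interval of -0.94 to 1.14 without the block and -0.43 to 0.63 with it, and an adjusted p from limma of 0.916 with the block. The interval without the block reaches above the pdk4.S change of 1.06, and the one with the block lies below it.

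The second pdp1.L probe set from the same target (Xl2.43194.1.S1_s_at) changed less in pair 2. It read 4.57, 5.34, 5.25 and 5.95 with dexamethasone and 4.64, 4.89, 5.49 and 6.11 without it, and its mean change was 0.00 (adjusted p = 0.996 with the block, limma). Its values followed the replicate numbers more than the treatment. On both probe sets the mean of the arrays of number 4 was the highest and that of number 1 the lowest, and the means of the numbers spanned 1.66 and 1.42. A span of 1.66 or more was seen for 574 probe sets (1.76%), and the median span was 0.35.

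The remaining 2 pdp1.L probe sets (Xl2.48951.1.S1_x_at and Xl2.48951.1.S1_at) had means of 3.94 and 3.89, within the background range. They ran from 3.22 to 4.75 and from 3.43 to 4.68 over the 8 arrays. Their highest arrays were those of number 3 and their lowest those of number 4, so they did not follow the brighter pdp1.L pair. Their changes were -0.01 and -0.17, with adjusted p from limma of 0.993 and 0.543 with the block.

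pdp2 encodes the second catalytic phosphatase subunit. The brighter pdp2.S probe set had the smallest spread of changes over pairs of the 11 (SD 0.04), at 6.37, 6.16, 6.57 and 6.40 with dexamethasone and 6.30, 6.11, 6.50 and 6.41 without it. Its pairs differed by -0.01 to 0.07. The mean change was 0.05, with a 95% interval of -0.23 to 0.32 without the block and -0.12 to 0.21 with it (adjusted p = 0.868 with the block, limma). The other pdp2.S probe set (Xl2.50787.1.S1_at) had a mean of 2.68, within the background range, and a change of 0.14 (0.542).

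The change of each pdk4 homeolog was set against that of each of the 8 other member probe sets. The 16 differences ran from 0.91 to 1.44, from 1.12 to 1.44 for pdk4.L and from 0.91 to 1.23 for pdk4.S. Both upper ends were against a pdp1.L probe set within the background range (Xl2.48951.1.S1_at), and 5 of the 8 other member probe sets lay above that range. The 8 include 4 probe sets of pdp1.L, so the 16 differences are not independent. In all 16 the pdk4 change was the larger in 4 of 4 pairs. Exact two-sided permutation tests over the 8 arrays gave p from 0.0286, the smallest that 70 splits allow, to 0.143. After Benjamini-Hochberg adjustment over the 16 differences the p-values ran from 0.0653 to 0.143, and none was under 0.05. These tests leave out the pairing by replicate number. Exact sign flips within the 4 pairs gave p = 0.125 for each of the 16, the smallest value 4 pairs allow, so the paired test could not have passed. The differences to pdk1.S and to the brighter pdp2.S probe set had the smallest possible p for both homeologs (adjusted p = 0.0653, exact permutation test). The difference with the largest p was pdk4.L against the brightest pdp1.L probe set, at 1.18 (exact p = 0.143).

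The genes around the kinases were read from lists of the pathway, each gene standing by its brightest probe set. The 8 lists held 121 measured genes, 104 of them above the background range, and no gene was called higher or lower in either fit. Of the 121 genes, 23 (19.0%) had an unadjusted p under 0.05 with the block, against 14.0% of all named genes, and 8 (6.61%) without it, against 4.8%. Their median change was 0.02, against 0.01 over the 11303 named genes. Over the named genes 49 were called higher and 34 lower with the block (0.734%).

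The subunits of the complex itself, which the kinases act on, were nearly level between the groups. All 7 measured genes were above the background range, their median change was 0.05 and none passed. The pdha1 homeologs, which encode the E1 alpha subunit that carries the phosphorylation sites, changed by 0.04 (pdha1.L) and 0.05 (pdha1.S). dld.S, the E3 subunit, had the lowest change, -0.01 (9.34 ± 0.08 against 9.34 ± 0.04, SD, n = 4). pdhx.L, the E3-binding protein, had the highest, 0.29 (6.44 ± 0.15 against 6.15 ± 0.49, adjusted p = 0.465 with the block, limma), with no_DEX array 1 alone low at 5.49.

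Among 18 genes of pyruvate supply and use none passed, and the median change was 0.06. With the block, 6 of the 18 had an unadjusted p under 0.05 (limma), against 14.0% of all named genes. All of these rose, among them both homeologs of pkm and of slc16a3. The others were gpt.L, changed by 0.29, and pck1.L, within the background range, by 0.60. Both were named after their values were seen, and their groups did not overlap. The lactate and pyruvate exporter slc16a3.S had the highest change of the genes above background, 0.33 (adjusted p = 0.158 with the block, limma), with higher values in 4 of 4 pairs. The lactate dehydrogenase gene ldha.L had the lowest, -0.05.

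Of 22 glycolysis genes none passed, and the median change was 0.02. pgam1.S, a phosphoglycerate mutase, was the 1 gene of the 121 with a change at least as large as that of the brighter pdk4.S probe set. It read 7.57, 7.91, 5.995 and 7.59 with dexamethasone and 4.65, 7.13, 5.61 and 6.64 without it. Its groups overlapped, since DEX array 3 lay below 2 untreated arrays. The change was 1.26 (SD 0.86 and 1.11, n = 4), higher in 4 of 4 pairs by 0.38 to 2.92, with an adjusted p from limma of 0.189 with the block. Its homeolog pgam1.L, named after its values were seen, changed by 0.77 (0.181). gapdh.S, which encodes an earlier enzyme of the pathway, had the lowest change of the genes above background, -0.29, and was lower in all 4 pairs (0.202). Its homeolog gapdh.L changed by 0.04, and pgam2.L, within the background range, by -0.60, both named after their values were seen.

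Of 19 TCA cycle genes none passed, with a median change of -0.01. mdh2.L, mitochondrial malate dehydrogenase, had the highest change, 0.30 (7.05 ± 0.06 against 6.75 ± 0.15, SD, n = 4, adjusted p = 0.203 with the block, limma), and its groups did not overlap. sdha.S, a succinate dehydrogenase subunit, had the lowest, -0.19.

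Of 22 genes of fatty acid oxidation, the fuel use that PDK4 accompanies in mammals, none passed and the median change was 0.00. acads.L, a short-chain acyl-CoA dehydrogenase, changed by 0.26, and etfa.L, an electron transfer flavoprotein subunit, by -0.29 (adjusted p = 0.274 and 0.280 with the block, limma).

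The branched-chain ketoacid dehydrogenase has its own kinase and phosphatase, related in kind to those of pyruvate dehydrogenase. The phosphatase gene ppm1k.S read 4.40, 4.85, 5.21 and 5.29 with dexamethasone and 4.11, 3.97, 4.48 and 4.72 without it. It was higher in 4 of 4 pairs, by a mean of 0.62, with an adjusted p from limma of 0.0582 with the block, and 2 of its untreated values lay within the background range. The kinase gene bckdk.S changed by 0.04, and bckdhb.S, an E1 subunit, by -0.13, while its second probe set changed by -0.01. None of the 4 genes passed.

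**Figure D3:**
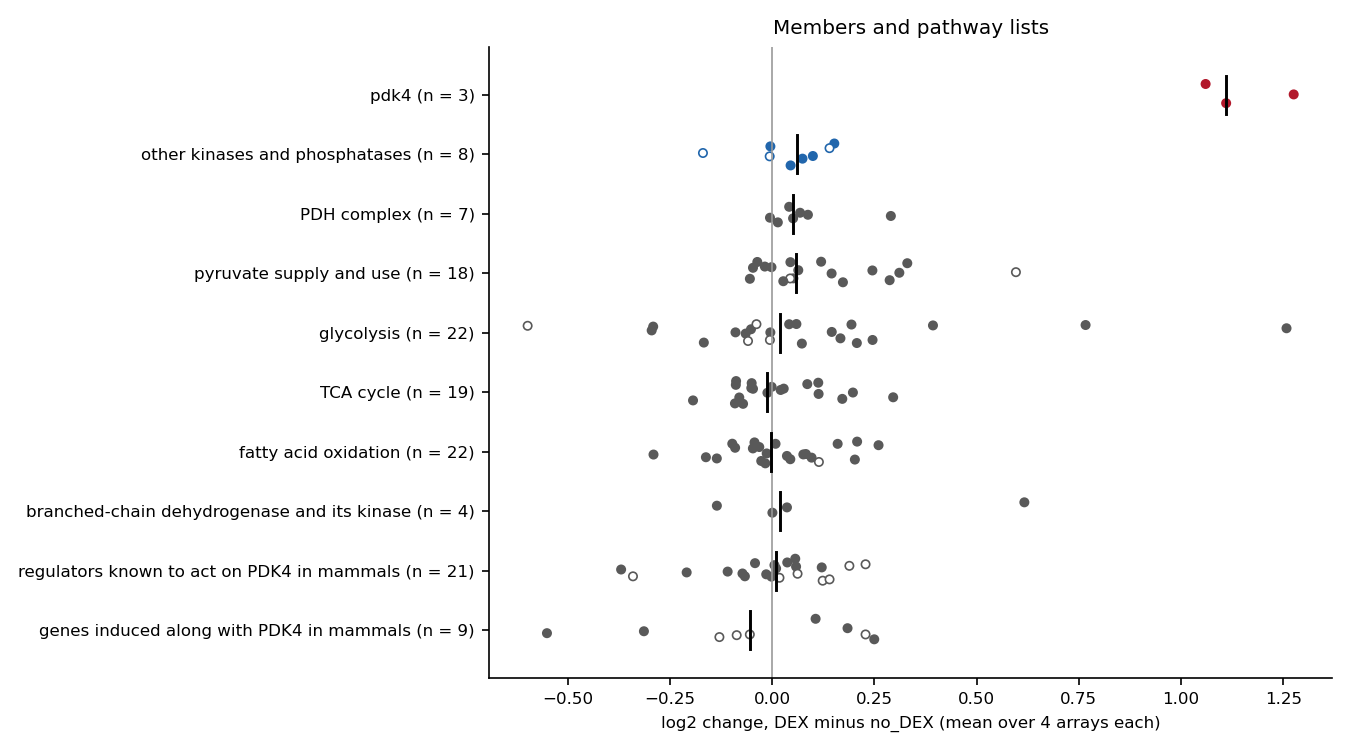
Log2 change (DEX minus no_DEX, means of 4 arrays) of the member probe sets and of each gene in the 8 pathway lists, with a bar at each median and open symbols for means within the background range. The pdk4 probe sets lie between 1.06 and 1.28, and of the listed genes pgam1.S alone, at 1.26, lies in that range.

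Regulators known to act on PDK4 in mammals included 21 measured genes, 14 of them above the background range. None passed, and the median change was 0.01. The estrogen-related receptor gene esrra.L read 8.69, 8.86, 8.75 and 8.67 with dexamethasone and 9.22, 9.18, 8.90 and 9.15 without it. Its groups did not overlap, and the change was -0.37 (adjusted p = 0.772 without and 0.136 with the block, limma). The kinase gene akt1.S, of the insulin pathway, had the highest change above background, 0.12. Both homeologs of nr3c1, the glucocorticoid receptor of the frog itself, had means within the background range, 3.71 for nr3c1.L and 3.86 for nr3c1.S.

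Of 15 symbols listed as induced along with PDK4 in mammals, 7 were found, for 9 genes, and angptl4, fkbp5 and zbtb16 were not among them. Of the 9 genes, 5 were above the background range and none passed. The median change, -0.05, was that of klf9.L, within the background range. A change above 0 was seen for 4 of the 9. The stress response gene ddit4.S changed by 0.25 (adjusted p = 0.468 with the block, limma). It was higher in 4 of 4 pairs, by 0.0005 to 0.73. per1.L changed by 0.18, higher in 4 of 4 pairs, and txnip.L by 0.11 (0.383 and 0.700), both named after their values were seen. cebpd.S, a transcription factor of the C/EBP family, changed by -0.55 and was lower in all 4 pairs (0.0820), while its second probe set changed by -0.07. Its homeolog cebpd.L, named after its values were seen, changed by -0.31 and was also lower in all 4 pairs (0.167). klf15.S, a Krüppel-like factor, had a mean of 2.92, within the background range.

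The genes whose values over the 8 arrays were most like those of pdk4 were taken by Pearson's r over 11821 probe sets with a single symbol and a mean above background. The 8 points share 2 treatment groups and 4 replicate numbers, so r describes these arrays. The pdk4 probe sets separate the groups, so a choice by r favours genes higher with dexamethasone, and their changes follow in part from that choice. For pdk4.L the closest were pld3.L, a phospholipase D family member (r = 0.990), the myosin gene myo10.2.S (0.981), cbfa2t2.L, a transcriptional corepressor (0.973), abhd17c.S, a depalmitoylase (0.972), and rassf3.S, a Ras association domain gene (0.971). Of these 5, cbfa2t2.L was called with the block. It read 9.34, 9.93, 9.27 and 9.25 with dexamethasone and 8.27, 8.66, 8.24 and 8.60 without it, a change of 1.00 (adjusted p = 0.0171 with and 0.272 without the block, limma). The other 4 changed by 0.16 to 0.54.

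For pdk4.S the closest were bora.S, an activator of Aurora A kinase (r = 0.989), midn.L, midnolin (0.975), wapl.L, a cohesin release factor (0.974), nhej1.S, a DNA repair factor (0.972), and aplnr.S, the apelin receptor (0.967). None of the 5 was called in either fit. bora.S had the largest change, 0.56 (adjusted p = 0.128 with the block, limma), and midn.L the smallest, 0.19. The lists for the pair of homeologs shared no gene, and 63 probe sets lay closer to pdk4.L than pdk4.S did, and 79 closer to pdk4.S than pdk4.L did.

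The 3 genes to either side of each pdk4 homeolog were taken from NCBI's table of genes on Xenopus_laevis_v10.1, for gene order only, a comparison chosen after the data were seen. Of the 6 neighbours of pdk4.L, 2 were measured, and of the 6 of pdk4.S, 3 were measured. None of these was called in either fit. The paraoxonase gene pon2.L, next to pdk4.L, changed by 0.20 (adjusted p = 0.307 with the block, limma), and the mitochondrial carrier gene slc25a13.L by 0.13. pon2.S, with a mean within the background range, changed by -0.13, sem1.S by 0.01 and dlx6.S by 0.08.

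The labelled tissue was checked against its markers. Of 28 measured endoderm genes, 24 were above the background range, among them sox17a.L with a mean of 9.98 and foxa2.L with 8.85, while hhex.L, hnf4a.S, mix1.L and mix1.S were within it. Signal above background was also read for markers of other tissues. Of 22 neural genes 20, of 28 muscle genes 16, and all 10 notochord and 15 epidermal genes lay above background, as did 11 of 16 genes of blood and endothelium. Over all 11303 named genes 8925 lay above it, so these counts alone do not identify a tissue. The muscle gene actc1.L had a mean of 10.50, whereas acta1.S and the myf6 genes were within the background range.

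The endoderm list had a median change of 0.21, with 0 genes called. Its median change in pairs 1 to 4 was 0.69, 0.05, 0.07 and -0.02, so it was high in pair 1, where pdk4 changed most. Its summed signal, on the linear scale, ran from 22787 to 30342 with dexamethasone and from 17174 to 30010 without it. Single endoderm genes departed from the median, and 22 of the 28 had a change above 0. cer1.S changed by 1.05, by 0.45 to 2.01 over the pairs (adjusted p = 0.0959 with the block, limma). foxa4.L and foxa4.S changed by 0.81 and 0.67 and were higher in 4 of 4 pairs. The lowest change above background was -0.46, for frzb2.L, which was lower in all 4 pairs. hhex.L and hnf4a.S, with means within the background range, were also lower in all 4 pairs. They changed by -0.57 and -0.34 (adjusted p = 0.0663 and 0.106 with the block, limma). Without pair 1, pdk4.L stood higher by 1.10 and pdk4.S by 0.86, and a link to the endoderm list was not tested.

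The neural list had a median change of -0.31, and with the block elavl3.L rose while sox1.S and tubb3.L fell. Its median change in pairs 1 to 4 was -0.03, -0.40, -0.19 and -0.43. Its summed signal ran from 7924 to 10314 with dexamethasone and from 10186 to 13367 without it. The muscle list had a median change of -0.27 with 0 genes called, and its pairs changed by -0.37, -0.42, -0.59 and 0.16. Its summed signal ran from 4113 to 5802 with dexamethasone and from 3539 to 9977 without it. In pair 4, pdk4.L stood 0.83 and pdk4.S 0.59 higher, the muscle median was above 0 and the neural median was at its lowest.

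The notochord list had a median change of -0.31, and with the block 1 gene fell, the signalling gene shh.L, by 0.94 on the log2 scale (adjusted p = 0.0156, limma). Its changes went both ways, with 4 of the 10 genes above 0, up to 0.81 for foxa4.L (adjusted p = 0.0537 with the block, limma). The epidermal list had a median of 0.00 with none called. The blood and endothelium list had a median of -0.06, and with the block the globin gene hba3.L rose by 1.59 and tal1.S, a blood transcription factor, fell by 1.06 (adjusted p = 0.0171 and 0.0169, limma). No marker gene was called without the block. With the block, an unadjusted p under 0.05 (limma) was found for 14.0% of all named genes. The same was found, counting changes in either direction, for 13 of 28 endoderm, 13 of 22 neural, 14 of 28 muscle and 8 of 10 notochord genes. For epidermal genes it was 1 of 15, and for blood and endothelium 6 of 16. The part of the tissue makeup in the pdk4 change was not tested. In these bulk samples, fewer cells of a type and less RNA per cell cannot be told apart.

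**Figure D4:**
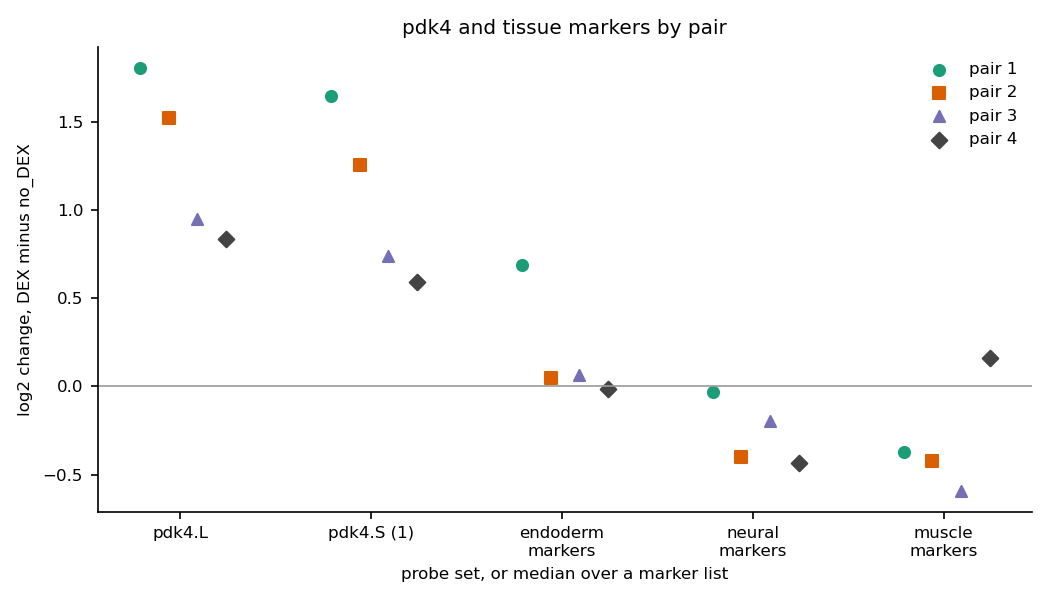
Log2 change (DEX minus no_DEX) within each pair of arrays for pdk4.L and the brighter pdk4.S probe set, and the median change over the endoderm, neural and muscle marker lists. The endoderm median is high in pair 1 alone, at 0.69, and the muscle median is above 0 in pair 4 alone, at 0.16. The neural median is below 0 and pdk4 above 0 in every pair.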

How the data were processed

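The table held log2 expression values deposited by the authors, 1 column per array, made by RMA per the submitters' processing notes (version not given in the sources used here), which understates the changes of dim probe sets. Values ran from 2.02 to 14.5 and array medians from 6.02 to 6.12, and no further scaling was applied. Per the labels, biotin-tagged cRNA was made from typically 10 µg of total RNA. After 96 Affymetrix controls were left out, 32539 probe sets were tested. The platform annotation gave 1 symbol for 15495, several for 279, which were not named, and did not list 16765. The number of arrays limits the precision.

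The DEX and no_DEX arrays were compared by lmFit and eBayes of limma 3.58.1 (R 4.3.3), with two-sided p adjusted by Benjamini-Hochberg over all probe sets. The main design has no block. Arrays of the same replicate number deviated together from their group means, with correlations of 0.629, 0.775, 0.774 and 0.693, above the limit of 0.1 in each pair. The arrays were therefore treated as paired by number, and values with the replicate block stand beside the others. Correlations between different numbers reached 0.20 and 0.163, which also pass that limit, so the limit alone does not mark the numbering. Deviations from a group mean cancel out within the group, which lowers the correlations between different numbers. Differences between members used exact permutation tests that counted every split, written in Python 3.11.15. The Bacillus subtilis controls planned as a measure of background had been spiked in, so 17 tag controls were used in their place. Alternatives left out arrays, pairs or dim probe sets, centred the arrays, or let the variance follow the intensity.

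The members and gene lists were chosen with earlier results of these data known. By rule, the named genes were every member, in each of the 8 pathway lists the genes called in either fit and the highest and lowest change among genes above background, and the 5 genes most like each pdk4 homeolog. The marker lists had no naming rule, and the genes named from them were chosen after their values were seen. Some genes stand in 2 lists, such as pgam2 (glycolysis and muscle), hnf4a (regulators and endoderm), foxa4 (endoderm and notochord) and klf15. The planned search for promoter motifs was not run.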

Additional observations from a re-analysis of the deposited data

How the results depend on the processing

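With the replicate block in place of no block, the calls rose from 2 to 107 probe sets higher and from 0 to 73 lower, and the pdk4.L and pdk4.S changes, unaltered at 1.28 (1.275) and 1.06 by construction, became called. With the block, leaving out dim probe sets gave 89 higher and 61 lower, centring the arrays 97 and 72, and an intensity trend 142 and 92. Under these, pdk4.L stayed called at changes of 1.27 to 1.28 (adjusted p from limma of 0.0122 to 0.0324), and the brighter pdk4.S probe set was called at 1.06 (1.055 with centring, adjusted p of 0.0219 to 0.0457) except without dim probe sets (0.0522). The dimmer pdk4.S probe set was called under all 3 (0.0240 to 0.0480). Leaving out 1 array or pair gave 0 to 47 probe sets higher and 0 to 73 lower. Over the same settings pdk4.L changed by 1.10 to 1.42 and pdk4.S by 0.83 to 1.26. None of these without the block called pdk4, at adjusted p of 0.217 to 0.762 for pdk4.L and 0.161 to 1.0 for pdk4.S. The 4 pdp1.L probe sets and the brighter pdp2.S probe set, not called in any setting, changed sign when an array or pair was left out. The pdp1.L probe sets ranged from -0.25 to 0.48, -0.23 to 0.27, -0.25 to 0.26 and -0.35 to 0.0665, and pdp2.S from -0.0290 to 0.12. The pdk4 differences to the other members gave 0 adjusted p under 0.05 in every setting that left out 1 array, and pdk4.L minus pdk4.S stayed between 0.06 and 0.36. Signal limits the pair of dim pdp1.L probe sets and the dim pdp2.S probe set, which lay within the background range.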
